A study of Mus musculus with 8 samples.

Results

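The genes of the proteasome were examined in C2C12 cells that carried a control retrovirus or a retrovirus expressing the histone deacetylase HDAC4. Members were the array probes that the platform annotation assigns to exactly 1 gene whose symbol starts with Psma, Psmb, Psmc, Psmd, Psme, Psmf or Psmg followed by a digit. This gave 43 of the 14510 genes that the annotation names, measured by 50 of the 31769 probes. The annotation held 19380 probes, 18976 of them naming exactly 1 gene, and the rule could match only these. Another 4 probes, for Psmc1, Psmc5, Psmc6 and Psme3, name more than 1 gene and were left out. The symbol rule also takes Psmc3ip, a partner of meiotic recombinases, and Psme3ip1, a partner of an activator subunit, neither of which is a part of the proteasome. Both are counted among the 50 and described apart.

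C2C12 is an established line of mouse myoblasts, whose cells differentiate and fuse into myotubes in low serum. Of the 8 samples, 4 came from cells selected with a Neo retrovirus and 4 from cells selected with an HDAC4-Neo retrovirus, so both groups carried the Neo marker. All were kept in 2% horse serum for 4 days from 90% confluence. Both lines are stably selected populations, and nothing in the labels says whether the samples of a group were separate cultures. The p-values therefore speak only of the spread among the samples at hand, and that spread may be technical. Each array held the cells' RNA in Cy5 and a common murine reference RNA in Cy3, and every value is the log2 ratio of cells over reference with the array's median set to 0. That the ratio runs this way is likely rather than stated: probes of differentiated muscle such as Ckm, at 9.45 in Neo and 9.28 in HDAC4, lay far above 0. If it ran the other way, every level and every change given here would turn its sign. A protocol in the labels names liver as the source of the reference, but of the 9 hepatocyte marker probes 5 had no value on any array and none had enough values to be tested.

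The arrays carried a value for 17014 to 22193 of the probes, with more in Neo. All 7 tested probes of differentiated muscle lay above 0 and all 7 of dividing cells below 0 on every array. Of the values of the muscle probes, 96.7% met the rule for the inferred floor of the reference signal, among them every Ckm value. If they lie there, they are ratios to a floor and not exact. The rounding of ratios above 100, such as those of Ckm, was not checked. Whether such values met the rule through coarser rounding was not tested. The sum of the muscle marker ratios ran from 2765 to 3460 in Neo and from 2367 to 2918 in HDAC4. That of the dividing cell markers ran from 0.775 to 1.195 and from 0.837 to 1.375, and that of the fibroblast markers from 0.171 to 1.147 and from 0.451 to 1.372. Of the tested muscle probes 4 were lower and 3 higher in HDAC4, of the dividing cell probes 1 lower and 6 higher, and of the fibroblast probes 3 of 3 higher. None of these passed the adjusted threshold in limma. At an unadjusted p under 0.05, Mb (change -0.91) was lower, and Mcm2 (0.32) and Thy1 (1.29) were higher, where 4.4% of all tested probes were lower and 2.63% higher. The part of these markers in the results below was not tested. The annotation table used here names no probe for Hdac4, so the labels were not checked against that gene. Between the groups, 21 of 16748 tested probes passed an adjusted p of 0.05 in limma, 20 lower and 1 higher in HDAC4 (0.119% and 0.00597%). With a block for the replicate number 9 passed, and without both arrays numbered 1, 348 of 15397 passed. With any 1 array left out the count ran from 0 to 88. In bulk RNA, fewer cells that express a gene and less RNA per cell cannot be told apart.

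The proteasome is the protease that digests proteins tagged with ubiquitin. Its barrel consists of outer rings of alpha subunits and inner rings of beta subunits, and the subunits Psmb5, Psmb6 and Psmb7 cut the substrate. A regulatory particle, with a ring of ATPases and a set of other subunits, recognises, unfolds and feeds in the tagged protein. In cells exposed to interferon gamma, Psmb8 takes the place of Psmb5, Psmb9 that of Psmb6 and Psmb10 that of Psmb7, which gives the immunoproteasome, and Psme1 and Psme2 form a cap that opens the barrel. In skeletal muscle the ubiquitin-proteasome system breaks down a large part of the contractile proteins during wasting.

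The start regions of these exchangeable beta subunits are shown because the main contrast within the family lies between them. The 250 bases before the start of each gene are given 5′ to 3′ on the gene's own strand, from RefSeq on GRCm38.p6. Capitals mark a match to an antioxidant response element (TGACNNNGC, the kind of site through which Nfe2l1 drives proteasome genes), an interferon-stimulated response element (a pair of GAAA with any 2 bases between them) or a gamma-interferon activation site (TTCNNNGAA), each searched on both strands. Psmb7 has no entry in the table used and is named only.
Psmb8, chr17:34197945-34198194, plus strand: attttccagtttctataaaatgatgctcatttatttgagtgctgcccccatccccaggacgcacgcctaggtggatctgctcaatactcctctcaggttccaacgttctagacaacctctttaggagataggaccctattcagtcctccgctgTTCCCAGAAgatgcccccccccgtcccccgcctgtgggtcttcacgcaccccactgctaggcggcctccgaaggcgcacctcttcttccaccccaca
Psmb5, chr14:54617996-54618245, minus strand: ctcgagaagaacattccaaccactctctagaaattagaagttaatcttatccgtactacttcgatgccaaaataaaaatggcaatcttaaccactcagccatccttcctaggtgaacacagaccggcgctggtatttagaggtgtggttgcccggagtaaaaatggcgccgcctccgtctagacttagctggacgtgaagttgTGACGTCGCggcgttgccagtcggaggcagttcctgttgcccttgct
Psmb9, chr17:34187331-34187580, minus strand: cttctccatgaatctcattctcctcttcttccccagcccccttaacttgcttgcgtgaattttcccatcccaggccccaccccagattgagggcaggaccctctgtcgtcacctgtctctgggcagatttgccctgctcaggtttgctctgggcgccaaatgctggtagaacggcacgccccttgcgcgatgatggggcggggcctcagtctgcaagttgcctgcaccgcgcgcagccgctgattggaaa
Psmb6, chr11:70525107-70525356, plus strand: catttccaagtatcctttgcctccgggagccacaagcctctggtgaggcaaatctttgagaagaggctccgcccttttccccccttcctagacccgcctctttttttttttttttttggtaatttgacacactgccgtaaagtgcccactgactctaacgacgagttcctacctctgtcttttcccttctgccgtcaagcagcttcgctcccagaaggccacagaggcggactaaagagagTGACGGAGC
Psmb10, chr8:105938393-105938642, minus strand: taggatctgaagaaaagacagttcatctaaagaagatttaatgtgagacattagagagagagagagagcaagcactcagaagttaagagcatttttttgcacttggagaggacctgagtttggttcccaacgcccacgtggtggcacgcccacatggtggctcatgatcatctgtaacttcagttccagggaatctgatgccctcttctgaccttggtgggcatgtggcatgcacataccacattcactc
The Psmb8 stretch holds the gamma-interferon match TTCCCAGAA, and the Psmb5 and Psmb6 stretches hold the antioxidant matches TGACGTCGC and TGACGGAGC. The Psmb9 and Psmb10 stretches hold none of the 3 motifs. Over windows of 300 bases, from 250 before to 50 after the start, 35 of the 43 genes were matched by symbol. The antioxidant motif was found in 3 of 21 constitutive subunit genes (14.3%), against 14% of all genes in the table, and in 0 of 5 immunoproteasome genes. The gamma-interferon motif was found in 1 of 5 immunoproteasome genes, in 1 of 21 constitutive genes (4.76%, Psmd2) and in 9.55% of all genes. The interferon-stimulated motif was found in 1 of 5 immunoproteasome genes, in Psme1 after its start, in 2 of 21 constitutive genes (9.52%, Psmb3 and Psmd4) and in 3.99% of all genes. The shares of the constitutive genes lay close to the share over all genes for the antioxidant motif. A match is a description of the letters and not a measured site.

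Most proteasome probes gave a measurement. Of the 50 probes, 46 had at least 3 values in each group and were tested, and 41 had a value on all 8 arrays. The probes of Psma8, the testis form of an alpha subunit, and of Psmb3, a beta subunit, had no value on any array, nor did 1 of the 3 Psmb9 probes. A second Psmb9 probe had 4 Neo values and 2 HDAC4 values and was not tested. Values at the inferred floor of the reference signal, 10 units, made up 7 of the 368 values of the members, on probes of Psmc4, Psmd4, Psmd10, Psmd12 and Psmd13. The deposited ratios from 0.1 to 100 were whole thousandths, and rounding alone would place 2.46 of the 246 member ratios of 1 or more at such a value (1%).

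Against the reference, the medians of the constitutive subunits and of the immunoproteasome lay on opposite sides of 0 on all 8 arrays. Of the 27 constitutive probes measured on all 8 arrays, 19 lay above 0 on every array and 2 lay below 0 on every array. Of the 5 such immunoproteasome probes, 0 lay above and 4 lay below on every array. Over all 14746 probes measured on all arrays, 32.6% lay above 0 throughout and 34.0% below throughout. The median log2 ratio of the constitutive probes, taken array by array, ran from 0.19 to 0.60 in Neo and from 0.48 to 0.65 in HDAC4. That of the 5 immunoproteasome probes, none of them for Psmb9, ran from -1.53 to -0.80 in Neo and from -1.50 to -1.25 in HDAC4. On every array this median was the value of a Psme1 probe. Psmb10 lay above 0 on Neo replicates 3 and 4. Its mean over the 8 arrays, -0.18, lay between 0 and those of the constitutive subunits Psma1 (-0.40) and Psma4 (-0.25). These are ratios to 1 reference RNA, so they order the genes only relative to that RNA and not by their abundance in the cells.

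**Figure D1:**
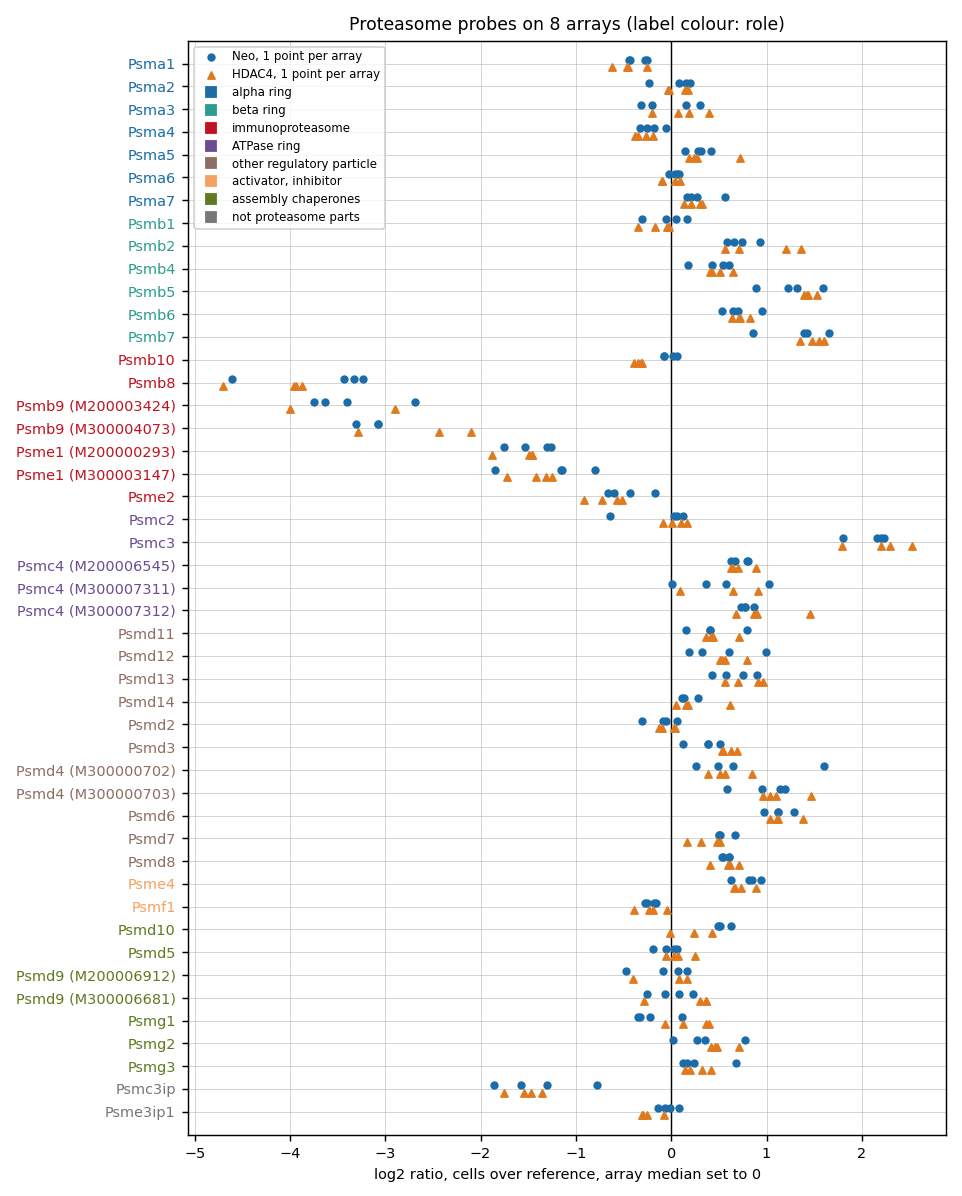
Log2 ratio of cells over reference (x axis) for the 47 proteasome probes with any value (y axis, coloured by role), with 1 point per array, circles for the 4 Neo and triangles for the 4 HDAC4 arrays. Psmb8, Psmb9 and Psme1 lie left of 0 on every array that measured them, while most constitutive subunits lie at or right of 0, and the circles and triangles of most probes overlap.

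No proteasome probe passed the test between HDAC4 and Neo. Of the 46 tested probes 0 had an adjusted p under 0.05 in limma, where 0.125% of all tested probes did. At an unadjusted p under 0.05, 1 was lower (Psmb10) and 1 higher (Psmg1), where 7.03% of all tested probes passed that rule, 4.4% lower and 2.63% higher. The groups did not overlap for 2 lower probes (Psmb10 and Psmd10) and 1 higher probe (Psmd3), against 3.18% and 2.07% of all tested probes. These shares lie near the background. The median log2 change, HDAC4 minus Neo, was 0.03 over the 46 probes and -0.00 over all tested probes, with 18 of the 46 lower and 28 higher. Without Neo replicate 4 the median was -0.01, so the sign of this small value rests on 1 array.

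The 95% intervals give a range for the change of each constitutive probe. All 29 tested constitutive probes had a 95% interval of the change within -1 and 1 on the log2 scale, that is within 2-fold either way, and 18 had one within -0.5 and 0.5. Over all tested probes 87.0% and 34.5% had such intervals. The changes of the 29 ran from -0.18 to 0.24 with a median of 0.06, 21 higher and 8 lower, and their adjusted p lay at 0.790 or above. Without Neo replicate 4, the array on which the median ratio of the constitutive probes was lowest at 0.19, that median change was 0.0047. A p that misses the threshold does not show that the groups are alike. Each interval is for 1 probe alone and treats the arrays as independent, so it can be too narrow if the samples were not separate cultures.

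**Figure D2:**
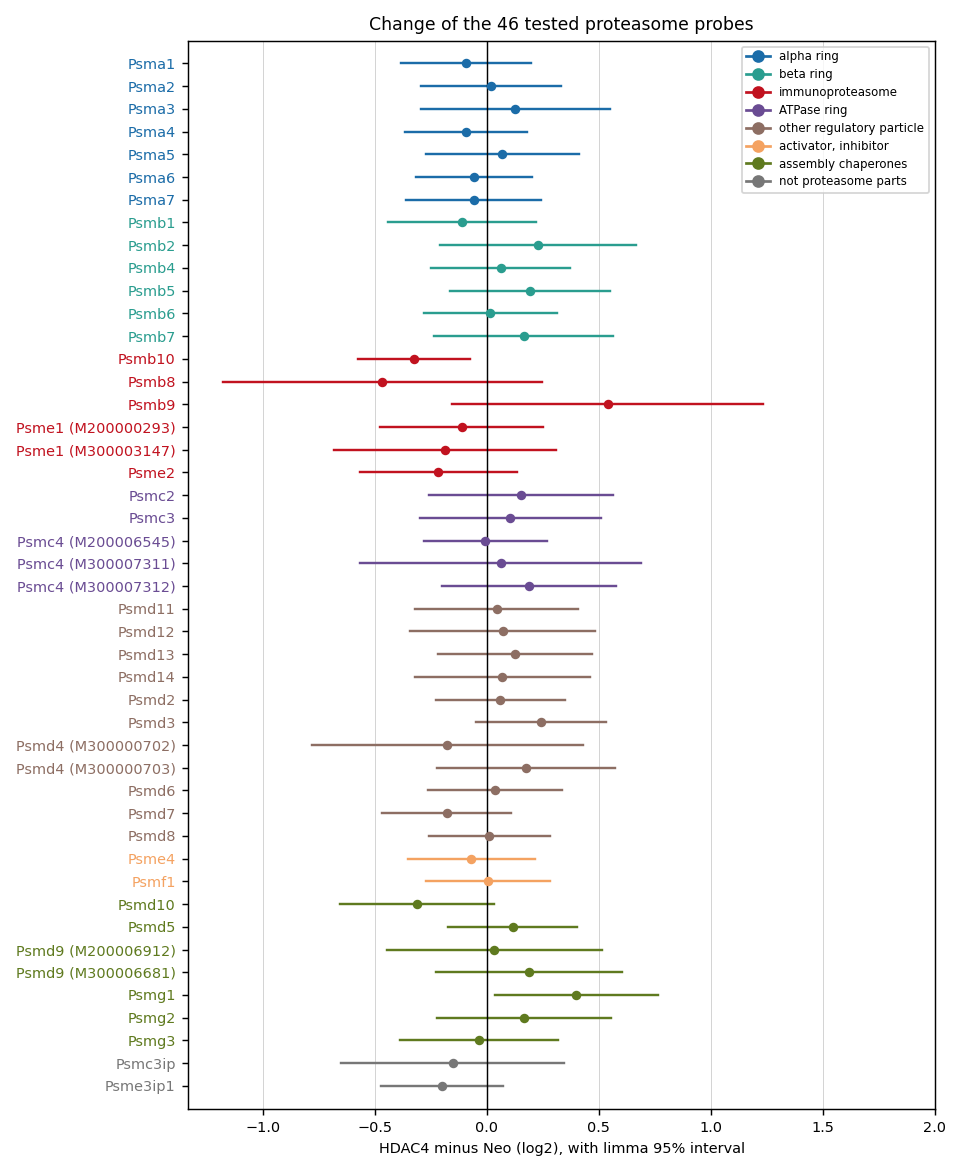
Change between the groups (x axis, HDAC4 minus Neo, log2) for the 46 tested proteasome probes (y axis, coloured by role), with the limma estimate as a point and its 95% interval as a line. The intervals of Psmb10 and Psmg1 alone leave out 0 before adjustment, and the Psmb8 and Psmb9 intervals are the widest.

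In the alpha ring, which gates the barrel, the 7 tested genes had changes between -0.09 and 0.13, 4 lower and 3 higher. Psma4 stood at -0.05, -0.19, -0.33 and -0.25 in Neo replicates 1 to 4 and at -0.38, -0.35, -0.27 and -0.19 in HDAC4. The groups overlapped, and the change was -0.09 ± 0.12 (SE; limma adjusted p = 0.941). Psma1 stood at -0.26, -0.27, -0.44 and -0.44 in Neo and at -0.46, -0.62, -0.25 and -0.45 in HDAC4, again with overlap (adjusted p = 0.943). Psma3 was the widest of the ring within a group, from -0.32 to 0.30 in Neo and from -0.21 to 0.40 in HDAC4. Psma2, Psma5, Psma6 and Psma7 had changes from -0.06 to 0.07.

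In the constitutive beta ring 1 probe was lower and 5 were higher, with a median change of 0.11. Psmb5, which carries the chymotrypsin-like activity, stood at 1.59, 1.22, 1.32 and 0.89 in Neo and at 1.53, 1.39, 1.43 and 1.43 in HDAC4. The HDAC4 values lay close together within the Neo range, with a change of 0.19 ± 0.16 (SE; limma adjusted p = 0.890). Psmb7, with the trypsin-like activity, stood at 1.65, 1.39, 1.42 and 0.86 in Neo and at 1.55, 1.35, 1.47 and 1.61 in HDAC4. Neo replicate 4 was the low array for both genes. Psmb6, with the caspase-like activity, stood at 0.95, 0.70, 0.64 and 0.54 in Neo and at 0.64, 0.72, 0.82 and 0.71 in HDAC4. Its groups overlapped, and its change of 0.02 had a 95% interval from -0.28 to 0.31. Psmb2, a beta subunit without catalytic activity, stood at 0.93, 0.65, 0.75 and 0.59 in Neo and at 1.20, 1.36, 0.56 and 0.71 in HDAC4, where replicates 1 and 2 lay above all Neo arrays, replicate 4 among them and replicate 3 just below them. Psmb1 and Psmb4 had changes of -0.11 and 0.06.

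Psmb10, the immunoproteasome subunit that takes the place of Psmb7, was the member with the smallest p. It stood at -0.07, -0.08, 0.06 and 0.02 in Neo and at -0.32, -0.39, -0.31 and -0.35 in HDAC4. All 4 HDAC4 arrays lay below all 4 Neo arrays, and the arrays numbered 1 did not stand apart. The means were -0.02 ± 0.07 (SD, n = 4) and -0.34 ± 0.04 (SD, n = 4), a 1.25-fold lower ratio in HDAC4 with a log2 change of -0.33 ± 0.11 (SE; 95% interval -0.58 to -0.07). The unadjusted p was 0.0163 and the adjusted p 0.559 in limma. The exact two-sided permutation p was 0.0286, the smallest that 4 against 4 arrays allow when shuffled without regard to replicate number. The change lay between -0.35 and -0.30 with any 1 array left out.

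Psmb8, which takes the place of Psmb5, had the lowest ratio to the reference among the members measured on all arrays. It stood at -4.61, -3.33, -3.23 and -3.44 in Neo and at -4.71, -3.87, -3.96 and -3.94 in HDAC4, on average 14.8-fold below the reference. Of the probes measured on all arrays 0.305% had a lower mean ratio, and with the ratio turned 99.7% would. The array numbered 1 was the lowest in both groups, and among replicates 2 to 4 the HDAC4 values lay below the Neo values. The change was -0.47 ± 0.32 (SE; limma adjusted p = 0.870) over all arrays, with HDAC4 lower in 4 of 4 same-numbered pairs. It was -0.79 without Neo replicate 1 and -0.27 without HDAC4 replicate 1. Within the pair numbered 1 the difference was -0.10. Without both arrays numbered 1 the change was -0.59 and the adjusted p 0.0356, so Psmb8 passed there, where 348 of 15397 tested probes did. A batch term for replicate 1 gave an adjusted p of 0.144, and the replicate block gave 0.298. The values carry no background or detection measure, so whether the signal of so low a probe lay above background was not tested.

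Psmb9, which takes the place of Psmb6, was measured unevenly. One probe stood at -3.63, -2.69, -3.75 and -3.40 in Neo and at -2.90 and -4.004 in HDAC4 replicates 1 and 4, and HDAC4 replicates 2 and 3 had no value. The other stood at -3.07, -3.30 and -3.08 in Neo replicates 1, 3 and 4 and at -2.44, -2.11 and -3.29 in HDAC4 replicates 2 to 4. The tested probe had a change of 0.54 ± 0.30 (SE; adjusted p = 0.814), opposite in sign to the other immunoproteasome probes, with a 95% interval from -0.16 to 1.23. Both probes lay below 0 wherever they had a value.

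The cap subunits Psme1 and Psme2 were lower by small amounts that did not pass. The Psme1 probe M200000293 stood at -1.53, -1.75, -1.30 and -1.26 in Neo and at -1.50, -1.88, -1.46 and -1.46 in HDAC4. The Psme1 probe M300003147 stood at -1.85, -1.16, -1.15 and -0.80 in Neo and at -1.72, -1.25, -1.31 and -1.42 in HDAC4. The groups overlapped for both, with changes of -0.11 and -0.19. With 1 array left out the first ran from -0.21 (without Neo replicate 2) to -0.011 (without HDAC4 replicate 2), and the second from -0.39 (without Neo replicate 1) to -0.041 (without Neo replicate 4). Psme2 stood at -0.60, -0.43, -0.17 and -0.67 in Neo and at -0.92, -0.73, -0.52 and -0.57 in HDAC4, with a change of -0.22 ± 0.16 (SE; limma adjusted p = 0.876), and with -0.12 without Neo replicate 3. Of the 6 tested immunoproteasome probes 5 were lower and 1 higher, where 50.6% of all tested probes were lower. With the mean over the probes of a gene, 4 genes were lower and 1 higher. The median change of the 6 probes was -0.20. With 1 array left out it ran from -0.34 (without Neo replicate 1) to -0.14 (without HDAC4 replicate 1). Without any array that measured it, the higher Psmb9 probe had too few values. The median was then over the 5 lower probes alone, as at -0.34. The median of the 29 constitutive probes was 0.06. No test of this difference was made, since the lists were chosen with earlier results of these data known.

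**Figure D3:**
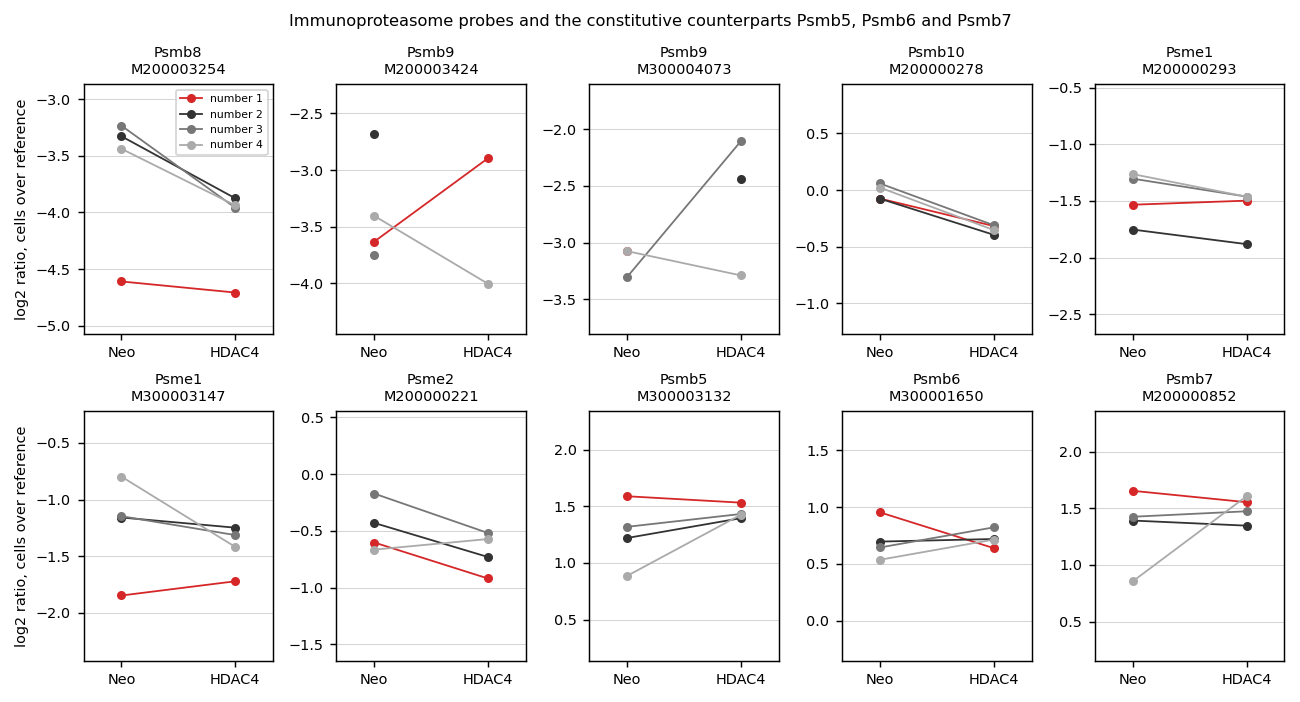
Log2 ratio of cells over reference (y axis, the same span in every panel) for the immunoproteasome probes with values and for Psmb5, Psmb6 and Psmb7, with 1 point per array and lines joining arrays of the same replicate number (number 1 in red). Psmb10 is lower in HDAC4 in 4 of 4 pairs within a narrow spread, and both arrays numbered 1 lie low for Psmb8.

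Markers of leukocytes, which express immunoproteasome genes constitutively, were sparsely measured. Of 10 leukocyte probes 2 had no value and 3 were tested. Some untested ones had values mostly in Neo, as a Csf1r probe with 3 Neo values and 0 in HDAC4 and a Ptprc probe with 4 and 1. Over all probes, too, the Neo arrays carried more values, 19248 to 22193 against 17014 to 18521 in HDAC4. Another untested Csf1r probe had 2 values in each group, with means of -3.56 in Neo and -2.90 in HDAC4. Cd68 had a mean ratio of -5.47 in Neo and -5.55 in HDAC4. A Ptprc probe, for the pan-leukocyte antigen CD45, had a mean of -2.86 in Neo (n = 4) and -3.84 in HDAC4 (n = 3), with a change of -0.98 (unadjusted p = 0.0357, adjusted p = 0.678). Summed over the 2 leukocyte probes with values on all arrays, Cd68 and Adgre1, the ratio ran from 0.121 to 0.291 in Neo and from 0.209 to 0.304 in HDAC4. Adgre1, a macrophage marker, had means of -2.60 in Neo and -2.04 in HDAC4. All samples came from an established myoblast line, so these ratios are given as values and not as a measure of leukocytes in the cultures. Their relation to the immunoproteasome values was not tested.

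In the ATPase ring, which unfolds the substrate, 5 probes of 3 genes were tested and 4 were higher. Psmc3 stood at 2.16, 2.20, 2.23 and 1.80 in Neo and at 1.79, 2.20, 2.29 and 2.53 in HDAC4, on average 2.15, the highest mean of any member. With the ratio turned it would be the lowest, at -2.15. Its groups overlapped (change 0.10 ± 0.18, SE; limma adjusted p = 0.958). Psmc2 stood at -0.64, 0.06, 0.02 and 0.12 in Neo and at -0.09, 0.16, 0.01 and 0.11 in HDAC4. Its change of 0.15 was -0.02 without Neo replicate 1, the low array. The 3 probes of Psmc4 gave changes of -0.01, 0.06 and 0.19. The last of these stood at 0.74, 0.87, 0.78 and 0.78 in Neo and at 0.68, 0.87, 0.90 and 1.46 in HDAC4, where replicates 3 and 4 were at the reference floor.

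Among the other subunits of the regulatory particle 9 of 11 probes were higher, with a median change of 0.06. Psmd3, a subunit of the lid, stood at 0.38, 0.39, 0.52 and 0.12 in Neo and at 0.69, 0.63, 0.54 and 0.53 in HDAC4. The HDAC4 arrays all lay above the Neo arrays by a margin smaller than the spread within either group, and the change was 0.24 ± 0.13 (SE; limma adjusted p = 0.790; exact permutation p = 0.0286). Psmd7, which pairs with the deubiquitinase Psmd14, stood at 0.67, 0.50, 0.51 and 0.50 in Neo and at 0.17, 0.51, 0.31 and 0.48 in HDAC4, with a change of -0.18 ± 0.13 (SE; limma adjusted p = 0.876). The difference was -0.50 in the pair numbered 1 and -0.07 over replicates 2 to 4. Psmd4, a ubiquitin receptor, had probes that went opposite ways, at 0.17 and -0.18, and its mean over probes changed by -0.0019. The lower one stood at 1.604, 0.65, 0.49 and 0.26 in Neo and at 0.84, 0.57, 0.51 and 0.38 in HDAC4. Neo replicate 1 was far above the rest, and over replicates 2 to 4 the difference was 0.019. Psmd2, Psmd6, Psmd8, Psmd11, Psmd12, Psmd13 and Psmd14 had changes between 0.01 and 0.13.

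The assembly chaperones held the largest changes outside the immunoproteasome. Psmg1, which with Psmg2 helps to build the alpha ring, stood at 0.12, -0.33, -0.23 and -0.35 in Neo and at 0.36, 0.39, -0.07 and 0.12 in HDAC4. HDAC4 was higher in 4 of 4 same-numbered pairs, but Neo replicate 1 lay within the HDAC4 range. The means were -0.20 ± 0.22 (SD, n = 4) and 0.20 ± 0.22 (SD, n = 4), a 1.32-fold higher ratio (log2 change 0.40 ± 0.16, SE; unadjusted p = 0.0346, limma adjusted p = 0.669). Psmg2 and Psmg3 had changes of 0.17 and -0.03. Psmd10, also known as gankyrin, a chaperone of the regulatory particle, stood at 0.51, 0.50, 0.49 and 0.63 in Neo and at 0.43, -0.01 and 0.24 in HDAC4 replicates 1 to 3. All HDAC4 values lay below the Neo values, but replicates 2 and 3 were at the reference floor and replicate 4 had no value (change -0.31 ± 0.15, SE; limma adjusted p = 0.764). The chaperones Psmd5 and Psmd9 had changes of 0.11 for Psmd5 and of 0.03 and 0.19 for the probes of Psmd9. The higher Psmd9 probe stood at -0.26, 0.08, 0.23 and -0.07 in Neo and at -0.29, 0.36, 0.37 and 0.30 in HDAC4.

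Psme4, an activator that caps the barrel in place of the regulatory particle, and Psmf1, an inhibitor of the barrel gave changes near 0. Psme4 stood at 0.84, 0.95, 0.63 and 0.82 in Neo and at 0.89, 0.74, 0.66 and 0.67 in HDAC4. Psmf1 stood at -0.26, -0.28, -0.16 and -0.18 in Neo and at -0.39, -0.19, -0.05 and -0.23 in HDAC4. Their groups overlapped, with 95% intervals of the change from -0.35 to 0.21 and from -0.27 to 0.28. The non-proteasome genes taken by the symbol rule, Psmc3ip and Psme3ip1, had changes of -0.15 and -0.20 (adjusted p = 0.944 and 0.836).

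Other genes of the pathway gave no call either. Of 18 tested probes for partners of the proteasome outside the symbol rule 12 were lower and 6 higher, where 50.6% of all tested probes were lower. Of the 18, 0 passed the adjusted threshold in limma and 2 were lower at an unadjusted p under 0.05, where 4.4% of all tested probes were. Pomp, the maturation protein that completes the beta ring, stood at 0.44, 0.25, 0.01 and 0.13 in Neo and at -0.18, -0.22, -0.05 and -0.00 in HDAC4. The groups lay apart by a narrow margin, with a change of -0.32 ± 0.14 (SE; limma adjusted p = 0.700). Nfe2l1, a transcription factor that drives proteasome genes, stood at 1.43, 1.34, 1.29 and 1.25 in Neo and at 1.24, 1.21, 0.996 and 1.003 in HDAC4. Its groups also did not overlap, with a change of -0.21 ± 0.12 (SE; limma adjusted p = 0.824). Such a separation with HDAC4 lower was seen for 2 of the 18 partner probes, against 3.18% of all tested probes. Pomp and Nfe2l1 are given because they are among the 3 smallest p of this list. Zfand5, which stimulates the proteasome, had a probe with a change of -0.69 (adjusted p = 0.583) and another with -0.10. In the list for ubiquitin supply and unfolding, 2 of 6 tested probes were lower and 4 higher, and the ubiquitin-conjugating enzyme Ube2d3 had the smallest p (change 0.31, adjusted p = 0.803). Ube2r2 and Vcp, the unfolding ATPase, had changes of -0.05 and 0.10, and another Vcp probe had -0.18.

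Genes of antigen processing and of the interferon gamma response were lower in 14 of 16 tested probes of 13 genes, where 50.6% of all tested probes were lower. The list was not limited to genes that interferon gamma induces, and it holds the receptor genes Ifngr1 and Ifngr2 and the kinases Jak1 and Jak2. The median change was -0.18, and 0 passed an adjusted or an unadjusted p under 0.05 in limma. In the pair numbered 1, HDAC4 was higher for B2m (0.48), Jak1 (0.28) and Jak2 (0.41). It was lower there for Ifngr2 (-0.30), Tapbpl (-0.23) and Tap1 (-0.65 and -0.37). Irf9, a subunit of the interferon-activated factor, stood at -0.90, 0.43, 0.35 and -0.16 in Neo and at -0.42, -0.65, -0.74 and -0.55 in HDAC4 (adjusted p = 0.783). Neo replicate 1 was the lowest of the 8 arrays, and the difference was 0.48 in the pair numbered 1 and -0.86 over replicates 2 to 4. Tapbp, which loads peptides onto class I molecules, stood at -1.47, -1.38, -1.09 and -1.33 in Neo and at -1.47, -1.51, -1.71 and -1.70 in HDAC4 (change -0.28, adjusted p = 0.757). Tap1, the peptide transporter, had 3 probes with changes of -0.27, -0.49 and -0.49, and the probe with the smallest p had an adjusted p of 0.835. Tap2 and Calr were the 2 probes that were higher, at 0.20 and 0.15.

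**Figure D4:**
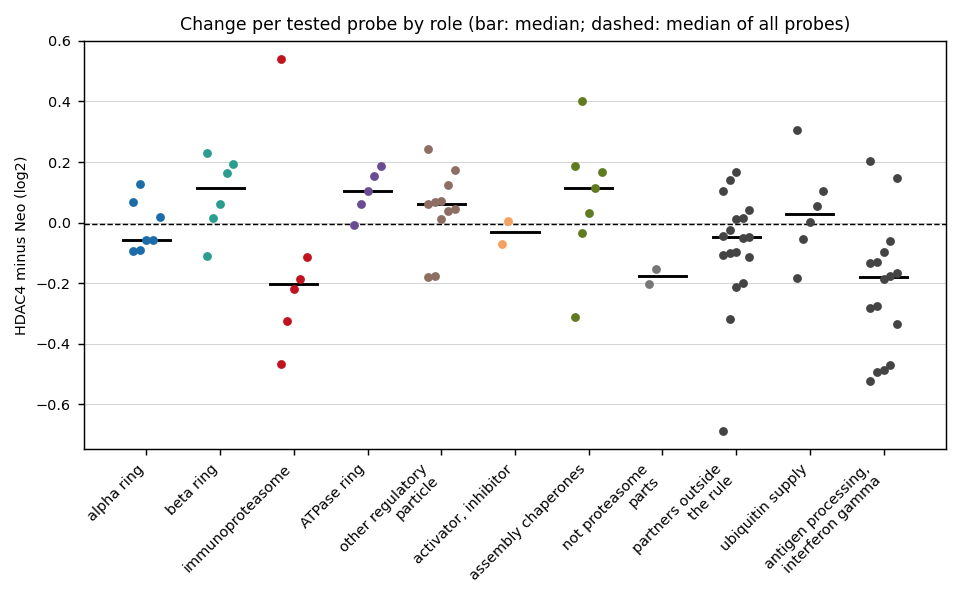
Change between the groups (y axis, HDAC4 minus Neo, log2) of each tested probe by role (x axis), with a bar at the median of each list and a dashed line at the median of all tested probes. The immunoproteasome list has its median at -0.20 and the antigen processing list at -0.18, and the constitutive rings and the regulatory particle lie close to 0.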

How the data were processed

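The deposited values are log2 ratios, 1 for each probe on each array. Ratios from 0.1 to 100 had been given in whole thousandths, and the rounding of larger ratios was not checked. The background correction, normalization and software of the authors were not given in the sources used here. Probes were named through the platform annotation, and symbols were checked against the RefSeq table of GRCm38.p6. Each array was centred on its median, and each probe was a feature, because probes of a gene differed in level and in missing values. Probes with at least 3 values in each group were fitted with limma 3.58.1 in R 4.3.3 (lmFit, eBayes), and p-values were adjusted over all 16748 probes with the Benjamini-Hochberg method. Exact two-sided permutation tests were run over arrays. The fit was tested on simulated data. A value was taken to be at the reference floor where 10 times the deposited ratio was a whole number within 0.001 and at least 10.

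Members, lists and tests were chosen with earlier results of these data known. Values were given for every immunoproteasome probe and its counterparts, and for the 3 smallest p in each role and related list. Alternatives changed the minimum number of values, the centring, the treatment of floor values, the replicate block, a term for or removal of the arrays numbered 1, array weights, the mean over probes and each array in turn. For numbers 1 to 4, the deviations of the Neo and HDAC4 arrays from their group means correlated at 0.53, 0.31, 0.21 and 0.11. All lay above the limit of 0.1 set for pairing. No such correlations are given for arrays of different numbers. Each group mean also holds the array numbered 1. Where that array stands apart in both groups, the others deviate together whether paired or not. The values for numbers 2 to 4 therefore cannot show that these arrays are pairs. The main fit had no term for the replicate number. The SE, intervals and p-values given are therefore those of unpaired groups, unless a block or batch term is named. The exact permutation tests did not keep the replicate numbers together either.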

Additional observations from a re-analysis of the deposited data

Results flagged for a closer look

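Among the named probes, 63 groups of 4 arrays were screened for an array far from the other 3 (Dixon's criterion, 0.829 of the range), and 7 met it. Chance alone gives about 1 in 20. Of the 7, 5 were arrays numbered 1. Psmb8 had Neo replicate 1 at -4.61 against -3.44 to -3.23 for the others, and HDAC4 replicate 1 at -4.71 against -3.96 to -3.87. Psmc2 had Neo replicate 1 at -0.64 against 0.02 to 0.12. Psmd7 had Neo replicate 1 at 0.67 against 0.50 to 0.51. Psmd9 had HDAC4 replicate 1 at -0.29 against 0.30 to 0.37. The other arrays were HDAC4 replicate 2 for Psme1, at -1.88 against -1.50 to -1.46, and Neo replicate 4 for Psmd10, at 0.63 against 0.49 to 0.51. Over the members measured on all arrays, the median ratio was 0.10 higher on the arrays numbered 1 than on the rest. In Neo it was 0.38 on number 1 against 0.14 to 0.27 on the others. In HDAC4 it was 0.3602 against 0.3002 to 0.3600, so by this median HDAC4 replicate 1 did not stand apart. What sets the arrays numbered 1 apart was not tested.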

How the results depend on the processing

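No proteasome probe passed in any alternative except without both arrays numbered 1, where 1 passed (Psmb8, a change of -0.59). Over all probes the count of 21 became 1 with values at the reference floor set to missing, 9 with the replicate block, 108 with replicate 1 as a batch, 348 without both arrays numbered 1 and 577 with array weights. With 1 array left out it ran from 0 to 88, and the 3 counts of 0, without Neo replicate 2, 3 or 4, stood beside 915, 957 and 936 probes at an unadjusted p under 0.05 in limma. It was 74 without Neo replicate 1, 88 without HDAC4 replicate 1, and 3, 9 and 2 without HDAC4 replicates 2, 3 and 4. Under the other alternatives it ran from 16 to 25. The replicate block changed no call of a member. The medians of the members, the immunoproteasome and the constitutive probes moved by less than the spread between arrays. Of the single probes, Irf9 passed with array weights (-0.90). With the mean over the probes of a gene, Psmd4 had -0.0019 and Vcp -0.039, signs opposite to those of the probes given. With 1 array left out, signs turned for Psmb6 (-0.042 to 0.10), Psmc2 (-0.023 to 0.23), Psmc3 (-0.0029 to 0.24) and Psmf1 (-0.051 to 0.063). The causes were not tested. The number of arrays limits the precision.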
